A study of Mus musculus with 4 samples.

Results

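The complement components and receptors described here were 9 genes of the 31053 genes counted in every library. They were chosen by name and read in marker-gated cell classes of mouse control skins and 2323 skin tumors. C1qa, C1qb and C1qc encode the chains of C1q, the recognition molecule of the classical pathway. C3, C4b, Cfb and Cfp encode the central component, a classical pathway component, factor B and properdin. C3ar1 and C5ar1 encode the receptors for the anaphylatoxins C3a and C5a.

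Complement is a cascade of plasma and tissue proteins in which bound C1q, lectins or spontaneous turnover of C3 lead to cleavage of C3 and then of C5. C4 forms part of the classical convertase, factor B forms the alternative convertase, and properdin stabilises the latter. The liver makes most plasma complement, whereas tissue macrophages are a known local source of C1q and, like neutrophils, carry receptors for the cleavage fragments.

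The study compared the immune cells of normal skin with those of skin tumors by single-cell RNA-seq. Both control skins came from uninoculated C57/BL6 mice, and both tumors came from C57/BL6 mice given the 2323 cell line under the skin of the flank. The study's methods give the inoculated mice as young adults of both sexes. The 2323 line was derived from a K14rtTA/tetOCre tumor model in which keratinocytes lack P53 among other engineered changes, so every tumor cell traced to 1 cultured line and the tumors stood for that line only. All cells were dissociated with collagenase IV and sorted as CD45+ DAPI- before capture. The groups differed at once in tissue, tumor cells and growth site, and these cannot be told apart.

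The libraries held between 2258 and 5176 cells and between 34893543 and 73904272 unique molecular identifiers (UMIs, counted transcripts). After the study's cell filters, 1994 to 4784 cells per library remained, with median depths of 10610 to 13361.5 UMIs, and pairs of libraries shared 1 to 5 cell barcodes. Cells were assigned to classes by markers that included no complement gene. Macrophage-gated cells held a UMI of at least 4 of 6 genes, among them Adgre1, Fcgr1, Csf1r, Mrc1 and Cd68. Monocyte-like cells held at least 3 of Ly6c2, Plac8, Chil3 and Ccr2 and at least 2 of the macrophage genes. Cells that passed both gates counted as monocyte-like. The macrophage genes summed to 20.3 and 28.2 UMIs per 10,000 in macrophage-gated cells of the control skins and 28.6 and 25.5 in the tumors. Of these 6 genes, 3 were higher and 1 was lower in both tumors. In monocyte-like cells they summed to 19.6 and 20.1 against 19.6 and 16.7, with 1 higher and 2 lower in both tumors. Ptprc, which encodes CD45, lay between 7.01 and 9.04 UMIs per 10,000 in the macrophage-gated cells of the 4 libraries. The gate took 108 and 253 cells in control skins 1 and 2, 3.62% and 8.19% of the cells kept, against 1796 and 599 cells in tumors 1 and 2, 37.5% and 30.0%. Values below are given in the order control skin 1, control skin 2, tumor 1, tumor 2, as UMIs of the gene per 10,000 UMIs of the summed cells.

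The C1q genes lie side by side on chromosome 4 of the mm10 build (GRCm38), all on the minus strand: C1qb at chr4:136880129-136886187, C1qc at chr4:136889804-136893065 and C1qa at chr4:136895917-136898803. C3 lies at chr17:57203970-57228136, C4b at chr17:34728380-34743882, Cfb at chr17:34856374-34862518 and Cfp at chrX:20925454-20931555. The receptor genes lie at chr6:122847138-122856161 for C3ar1 and chr7:16246743-16259540 for C5ar1. The level of C4b is uncertain, since reads from near-identical sequence could be split or dropped in the counting. Cfb overlaps the annotated gene Gm20547 on the same strand, and Gm20547 was listed at 0 UMIs in all 4 libraries.

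The 250 bases before the start site are shown for 3 members of different behaviour whose window lay outside every annotated member transcript: C1qb, whose level set macrophages apart, C3, which carried the largest macrophage difference, and Cfp, whose highest tumor level was shared with dendritic cells. RefSeq promoters (GRCm38.p6) matched 6 of the 9 members. The windows printed are chr4:136886201-136886450, chr17:57228137-57228386 and chrX:20931556-20931805, minus strand, 5′ to 3′, with capitals marking matches to 5 short motifs searched on both strands.
C1qb: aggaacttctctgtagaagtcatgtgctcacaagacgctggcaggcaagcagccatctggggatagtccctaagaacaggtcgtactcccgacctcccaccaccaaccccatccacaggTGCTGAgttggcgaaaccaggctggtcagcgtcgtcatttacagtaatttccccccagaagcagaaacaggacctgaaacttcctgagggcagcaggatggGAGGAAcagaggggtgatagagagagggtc
C3: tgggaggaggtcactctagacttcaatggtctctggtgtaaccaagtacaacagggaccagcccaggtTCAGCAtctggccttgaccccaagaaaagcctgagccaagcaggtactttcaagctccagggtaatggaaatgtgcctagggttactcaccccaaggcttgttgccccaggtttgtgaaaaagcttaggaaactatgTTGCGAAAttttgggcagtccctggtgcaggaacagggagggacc
Cfp: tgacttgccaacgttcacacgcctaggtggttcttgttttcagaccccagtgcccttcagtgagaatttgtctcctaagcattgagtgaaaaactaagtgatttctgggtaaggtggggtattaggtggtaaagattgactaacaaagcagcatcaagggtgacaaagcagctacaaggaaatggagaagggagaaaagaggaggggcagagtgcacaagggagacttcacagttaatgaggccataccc
The C1qb window held an ETS-type core, GAGGAA, 30 bases before the start and a Maf half-site, TGCTGA, 131 bases before it. The C3 window held a C/EBP-type match, TTGCNNAA, 45 bases before the start and TGCTGA on the opposite strand 182 bases before it. The Cfp window matched none of the 5 motifs, which also included the STAT-type TTCNNNGAA and the interferon-response type GAAANNGAA. Among 32841 promoter windows of the same length, 23.3% held GAGGAA, 16.1% TGCTGA, 9.57% TTGCNNAA, 7.02% TTCNNNGAA and 7.13% GAAANNGAA. The matches are descriptions of these letters, and no binding was measured.

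C1q transcripts gave the most UMIs of the members in macrophage-gated cells, counted at transcript ends and not per length, and were highest in that class in every library. C1qa stood at 6.51 and 10.6 UMIs per 10,000 in the control skins and at 30.1 and 21.2 in the tumors. C1qb stood at 8.01 and 12.2 against 27.6 and 19.0, and C1qc at 4.24 and 6.92 against 19.0 and 12.7. Both tumor libraries lay above both control libraries for all 3 chains, with ratios of the group means of 3.0 for C1qa, 2.31 for C1qb and 2.84 for C1qc. On the log2 scale of the edgeR quasi-likelihood fit the differences were 1.34 for C1qa (SE 0.30, adjusted p = 0.0861), 0.96 for C1qb (SE 0.28, adjusted p = 0.155) and 1.25 for C1qc (SE 0.30, adjusted p = 0.103). None of the 3 passed the threshold of 0.05.

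The groups differed in how many macrophage-gated cells carried C1q and in the median level over all of these cells. The level among carrying cells alone was not computed. Cells without a UMI of any chain made up 29.6% (95% exact interval 21.2 to 39.2) and 21.3% (16.5 to 26.9) of macrophage-gated cells in the control skins. In the tumors they made up 3.06% (2.32 to 3.97) and 5.34% (3.68 to 7.46). These intervals cover counting error only, and the groups did not overlap. The median cell held 3.53 and 16.4 C1q UMIs per 10,000 in the control skins and 71.7 and 48.8 in the tumors, whereas the cell at the 90th percentile held 60.7 and 88.4 against 133 and 93.9. All 3 chains were found together in 43.5% and 61.7% of control cells and in 89.2% and 87.3% of tumor cells.

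The order of the libraries was the same at a common depth. With every cell thinned to 1000 UMIs, C1qa was found in 30.6% and 42.7% of control macrophage-gated cells and in 79.2% and 70.8% of tumor ones, against 53.7%, 70.0%, 93.6% and 91.5% at full depth. The alpha beta T cells, which should lack C1q, gave thinned shares of 0.362%, 3.33%, 2.14% and 3.29%. The part of free RNA and of doublets in these shares was not tested. Median depths were 14150 to 19820 UMIs in macrophage-gated cells and 8461 to 10140 in alpha beta T cells.

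Monocyte-like cells held less C1q than macrophage-gated cells in every library, and the same order of the groups. C1qa read 4.22 and 4.15 UMIs per 10,000 in the control skins and 11.5 and 8.92 in the tumors. C1qb read 4.74 and 5.46 against 13.2 and 9.0, and C1qc read 2.78 and 2.57 against 7.45 and 4.99. The groups did not overlap for any chain. The summed monocyte markers of the same cells read 32.0 and 35.0 against 26.4 and 19.2, with 3 of 4 lower in both tumors, and their part in the C1q values was not tested. Fitted log2 differences were 1.17 for C1qa (SE 0.19, edgeR adjusted p = 0.0636), 1.00 for C1qb (SE 0.23, adjusted p = 0.152) and 1.11 for C1qc (SE 0.23, adjusted p = 0.114). C1q was missing from 60.7% and 57.5% of monocyte-like cells in the control skins and from 23.6% and 22.3% in the tumors.

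Langerhans cells, the resident antigen-presenting cells of the epidermis, had the next C1q level in control skin after macrophage-gated and monocyte-like cells. The 476 and 451 Langerhans cells of the control skins held C1qa at 2.02 and 1.74, C1qb at 1.3 and 1.15 and C1qc at 0.798 and 0.737 UMIs per 10,000. Each of these lay below the monocyte-like values and above those of the next class. The tumors held 3 and 6 Langerhans cells, too few for a level. Langerhans cells supplied 30.0% and 12.7% of the C1qa UMIs of the control libraries and macrophage-gated cells 22.6% and 36.9%, with 3.23% and 5.75% from monocyte-like cells. By this share Langerhans cells stood above macrophage-gated cells in control skin 1 and below them in control skin 2. In the tumors macrophage-gated cells supplied 86.7% and 66.8%. Cells that passed the gates of more than 1 lineage held 41.2%, 41.3%, 3.65% and 22.3%, and were left out of every class.

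The proportion of the chains was read in each class. In macrophage-gated cells C1qa made up 34.7% and 35.7% of C1q UMIs in the control skins and 39.3% and 40.1% in the tumors, and C1qb made up 42.7% and 41.0% against 36.0% and 35.9%. C1qc stayed between 22.6% and 24.7%. In control Langerhans cells C1qa made up 49.1% and 48.0%, with C1qb at 31.6% and 31.7%. The exact 95% intervals of the C1qa share, 47.4 to 50.7 and 46.2 to 49.8 in Langerhans cells against 33.2 to 36.3 and 34.8 to 36.5 in control macrophage-gated cells, did not overlap. They cover counting error only and take the UMIs of 1 cell as independent, and no test over libraries was made. Monocyte-like cells held C1qb at 40.4%, 44.9%, 41.1% and 39.3%. The C1q UMIs in tumor alpha beta T cells held 39.5% and 39.1% C1qa, close to the macrophage-gated shares of the same libraries and within their intervals of 33.8 to 45.3 and 32.9 to 45.5.

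**Figure D1:**
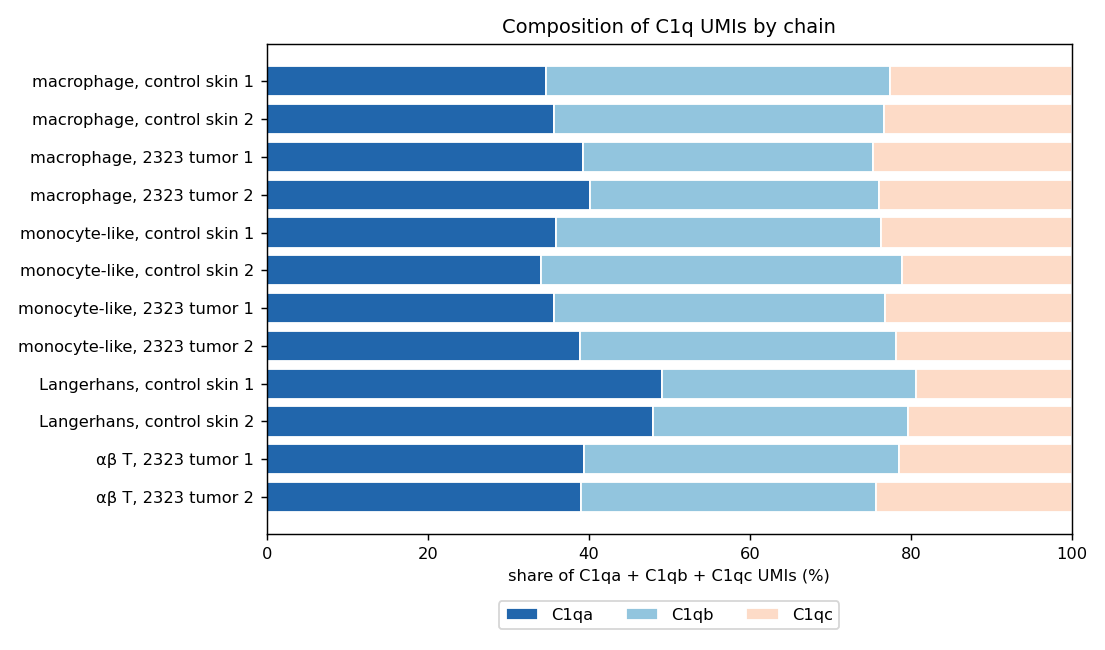
Share of C1qa, C1qb and C1qc among all C1q UMIs (x axis, percent) by class and library (rows). C1qa made up 49.1% and 48.0% in control Langerhans cells and 34.7% to 40.1% in macrophage-gated cells.

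C3, the component on which all pathways converge, was the member that passed the test in macrophage-gated cells. It read 0.463 and 0.229 UMIs per 10,000 in the control skins and 2.21 and 3.81 in the tumors, a ratio of the means of 8.70. Both tumor libraries lay far above both control libraries, and tumor 2 was higher than tumor 1. C3 rose by a log2 difference of 2.95 (SE 0.43, edgeR adjusted p = 0.0377). With cells thinned to 1000 UMIs, C3 was found in 2.78% and 1.98% of control macrophage-gated cells and in 15% and 28.4% of tumor ones, against 27.8%, 19.4%, 65.9% and 81.5% at full depth. The thinned shares in alpha beta T cells were 0, 0, 0 and 1.97%. The C3 call was lost without control skin 1 or control skin 2, where the control left was assumed to vary like the tumors. It was lost too with the replicate number as a block (edgeR adjusted p = 0.0937). It was also lost without the macrophage-gated cells that held 2 or more cDC2 markers, an alternative chosen after seeing the data (adjusted p = 0.0817), while the log2 difference stayed between 2.53 and 3.49.

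C4b and Cfb, which supply components of the classical and alternative convertases, gave few UMIs and read higher in both tumors. C4b gave 11 and 60 UMIs in control macrophage-gated cells and 2877 and 557 in tumor ones, or 0.0548 and 0.148 against 0.773 and 0.460 per 10,000. Its log2 difference was 2.26 (SE 0.44, edgeR adjusted p = 0.0667). Cfb read 0.120 and 0.17 against 0.505 and 1.19 per 10,000, with a log2 difference of 2.31 (SE 0.49, adjusted p = 0.0802). Neither gene overlapped between the groups and neither passed. With 1 library left out, the other of its group was assumed to vary like the opposite group. Those fits are not read for C4b and Cfb.

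Cfp, which encodes properdin, read 1.52 and 1.91 UMIs per 10,000 in control macrophage-gated cells and 2.44 and 3.08 in tumor ones, with a log2 difference of 0.46 (SE 0.23, edgeR adjusted p = 0.368). The groups did not overlap but the difference did not pass. Cfp is X-linked, and the study names both sexes, so Xist, transcribed from the inactive X, and the Y-linked Ddx3y were read over all kept cells. Xist lay at or under 0.00595 UMIs per 10,000 in every library, and Ddx3y between 0.953 and 2.39. All 4 libraries thus read as male, which goes against the use of both sexes for these samples.

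The receptors differed least in macrophage-gated cells. C3ar1 read 1.11 and 2.15 UMIs per 10,000 in the control skins and 2.37 and 2.22 in the tumors (log2 difference 0.25, SE 0.31, edgeR adjusted p = 0.725). C5ar1 read 0.897 and 1.67 against 1.89 and 1.96 (log2 difference 0.34, SE 0.30, adjusted p = 0.618). Both tumors lay above both controls for each receptor, but control skin 2 was close to them. Without control skin 1 the fitted differences turned to -0.15 for C3ar1 and -0.05 for C5ar1.

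Over the 9 members, 1 passed as higher in macrophage-gated cells, and 0.861% of the 11959 genes tested did so. At an unadjusted p under 0.05, 6 of 9 were higher, against 8.64% of all genes, and DESeq2 called 6 of 9 higher, against 1.56%. All 9 members had both tumor libraries above both control libraries, as 43.7% of all genes did. The median log2 difference was 1.25 over the members and 0.04 over all genes tested. The p-values rest on the spread between 2 libraries a group, which the edgeR fit moderates by the spread of the other genes. An exact permutation test of 2 against 2 cannot go below 0.333.

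**Figure D2:**
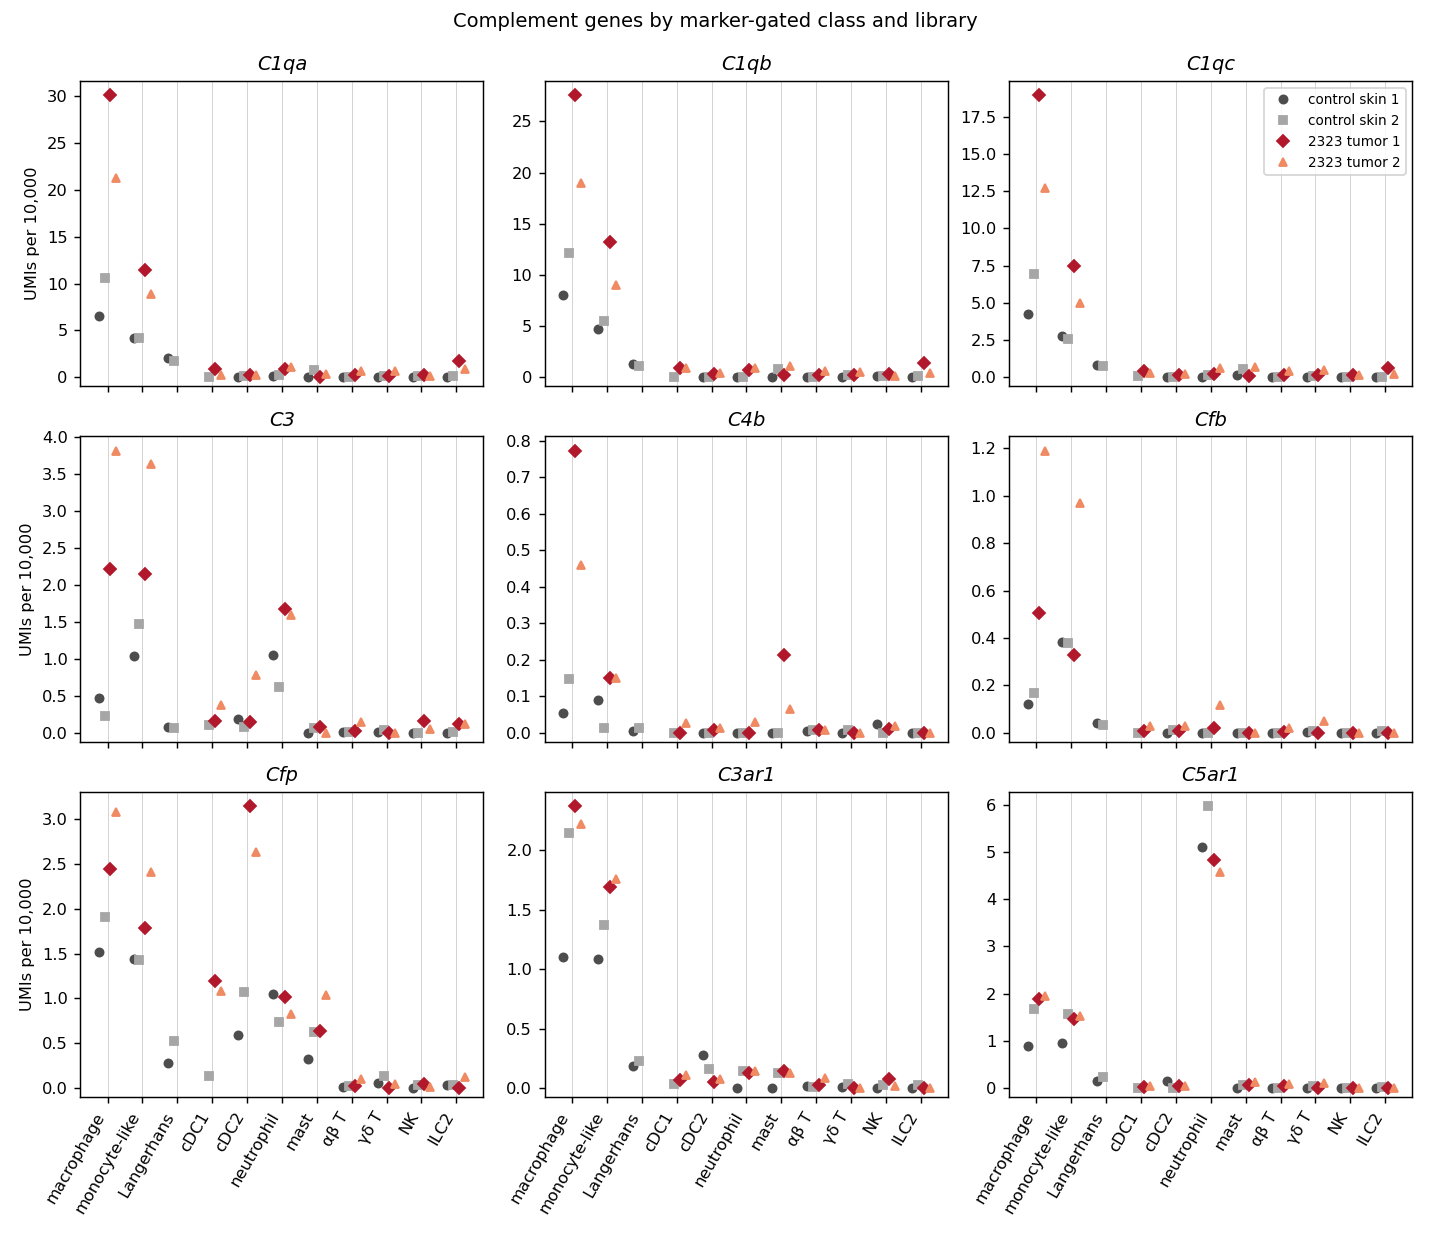
Level of each member (y axis, UMIs per 10,000) by marker-gated class (x axis), with 1 point per library that held at least 10 cells of the class. The tumor points stand highest for C1qa, C1qb, C1qc and C4b in macrophage-gated cells, those for C3 and Cfb overlap with monocyte-like cells, and C5ar1 is highest in neutrophils of all 4 libraries.

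Other markers moved beside these levels. The summed cDC2 markers (Flt3, Cd209a, Zbtb46 and Dpp4) in macrophage-gated cells read 4.15 and 2.98 UMIs per 10,000 in the control skins and 0.452 and 0.394 in the tumors, with 3 of the 4 lower in both tumors. Cells with 2 or more of them made up 20.4%, 14.6%, 4.57% and 4.17% of macrophage-gated cells. In those cells the C1q sum was 4.58 and 5.93 against 32.2 and 20.8, and in the remaining cells 23.8 and 35.5 against 79.7 and 54.9. Both tumors were higher on either side of that division. Langerhans markers were lower too, at 1.46 and 0.99 against 0.148 and 0.289 with 4 of 6 lower in both tumors, and ILC2 markers read 4.92 and 3.09 against 0.819 and 2.05 with 3 of 6 lower. Of 7 collagen markers 6 were lower, at summed levels of 0.209 and 0.324 against 0.0591 and 0.0965. The cDC1 markers read 2.82 and 1.47 against 4.99 and 1.98, with 4 of 5 higher. The part of these lists in the members' levels was not tested.

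The level of C1q followed the number of macrophage markers found in a cell, which the gate used. Just outside the gate, cells with 3 of the 6 markers held a C1q sum of 7.04, 4.12, 13.6 and 11.7 UMIs per 10,000, and just inside it, cells with 4 markers held 10.3, 8.49, 24.0 and 21.3. Cells with all 6 held 39.8, 48.8, 88.7 and 65.6. The tumors were higher at each number of markers. All 6 markers were found in 22 and 87 control cells and in 1136 and 314 tumor cells. C3 did not follow the number of markers in the control skins, at 0.583, 0.193, 1.22 and 3.58 with 4 markers and 0.590, 0.190, 2.31 and 4.14 with 6. C5ar1 with 6 markers read 1.33, 2.99, 2.06 and 2.38, so that the groups overlapped.

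**Figure D3:**
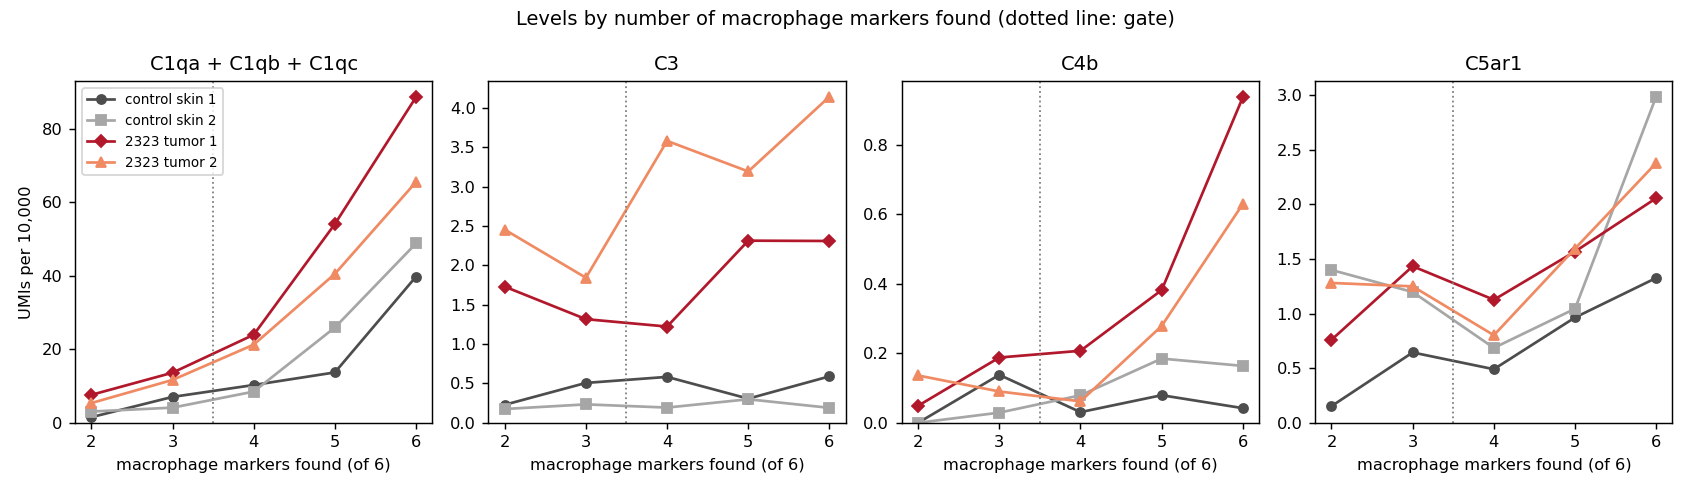
Level (y axis, UMIs per 10,000) of the C1q sum, C3, C4b and C5ar1 in cells with 2 to 6 of the 6 macrophage markers (x axis), 1 line per library, with the gate at the dotted line. With all 6 markers, both tumors (88.7 and 65.6) exceeded both control skins (39.8 and 48.8) in the C1q sum, whereas C5ar1 overlapped.

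In monocyte-like cells C3 and Cfb had a different starting level. C3 read 1.04 and 1.47 UMIs per 10,000 in the control skins, above the control macrophage-gated values, and 2.14 and 3.63 in the tumors, close to the macrophage-gated values there. Cfb read 0.384 and 0.377 in the control skins, again above the macrophage-gated values, and 0.329 and 0.968 in the tumors, so that the groups overlapped. The log2 differences were 1.06 for C3 (SE 0.32, edgeR adjusted p = 0.240) and 0.64 for Cfb (SE 0.52, adjusted p = 0.686). Without tumor 2 the Cfb difference turned to -0.34.

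The remaining members differed less in monocyte-like cells or rested on few counts. C4b gave 4 and 2 UMIs in the control skins, and its levels were 0.0903, 0.0124, 0.15 and 0.149 per 10,000. Cfp read 1.45 and 1.43 against 1.78 and 2.41, C3ar1 1.08 and 1.37 against 1.69 and 1.76, and C5ar1 0.949 and 1.56 against 1.46 and 1.52. C5ar1 overlapped between the groups, and its fitted difference turned to -0.26 without control skin 1. C4b, Cfp and C3ar1 did not overlap. No member passed by edgeR, where 0.454% of 9700 genes were called higher. At an unadjusted p under 0.05, 5 of 9 were higher, against 7.1% of all genes, and DESeq2 called 3 of 9 higher, against 0.587%. Both tumor libraries lay above both controls for 7 of 9 members, as for 32.5% of all genes, and the median log2 difference was 1.00 over the members and 0.05 over all genes. C1qa passed with the replicate block (edgeR adjusted p = 0.0447) and after Scrublet removal of doublets (edgeR adjusted p = 0.0477). With 1 library left out, the other of its group was assumed to vary like the opposite group. Such fits are not read for the C1q chains.

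The tumor effect on C3 and Cfb differed between macrophage-gated and monocyte-like cells. The difference of the log2 effects, macrophage-gated minus monocyte-like with library as a term, was 2.05 for C3 (SE 0.36, edgeR adjusted p = 0.0234) and 1.69 for Cfb (SE 0.27, adjusted p = 0.0180). These were 2 of the 9 members, and 0.743% of 11164 genes were called larger in macrophage-gated cells. The other 7 members differed by -0.10 to 0.25, with SE of 0.15 to 0.21 except C4b at 0.84, and did not pass. C3 and Cfb thus held a higher level in monocyte-like than in macrophage-gated cells of both control skins, and levels that overlapped between the classes in the tumors. The control skins gave 93 and 93 C3 UMIs and 24 and 69 Cfb UMIs in macrophage-gated cells. In monocyte-like cells they gave 46 and 237 C3 UMIs and 17 and 61 Cfb UMIs. This test was not rerun with a library left out, with stricter gates or with doublets removed.

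**Figure D4:**
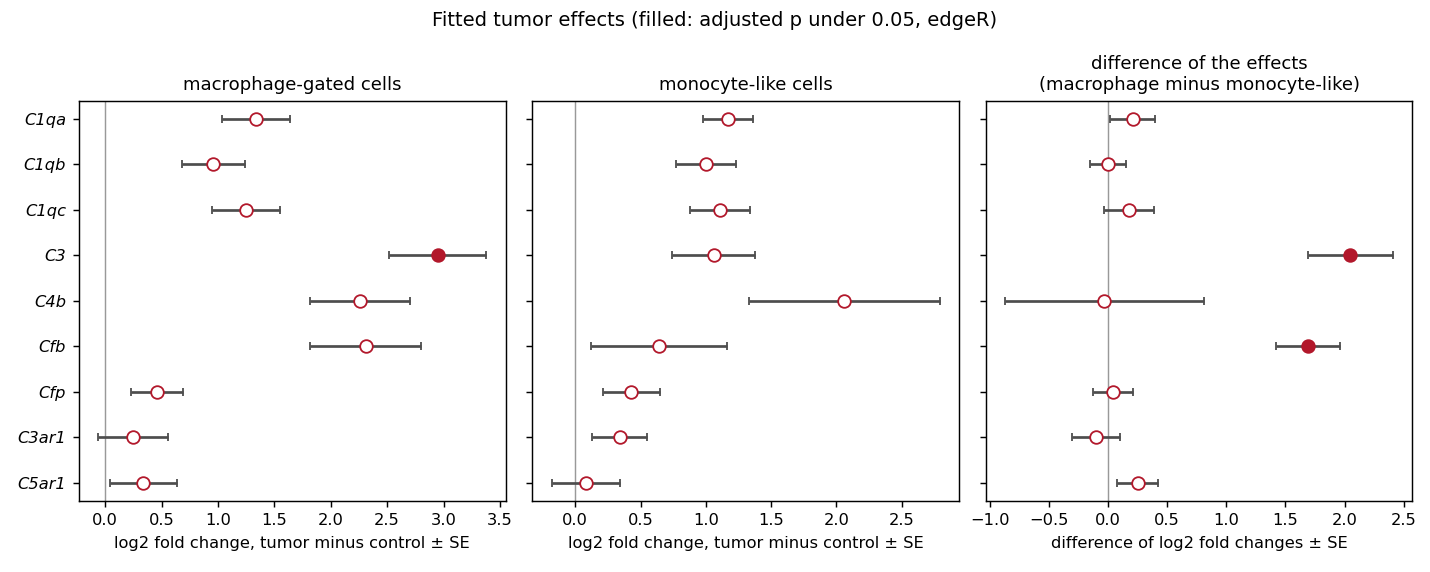
Fitted log2 difference, tumor minus control, with SE bars (x axis) for the 9 members (y axis) in macrophage-gated cells, in monocyte-like cells, and the difference between the classes. Filled points passed an edgeR adjusted p of 0.05: C3 in macrophage-gated cells, and C3 and Cfb for the difference.

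Type 2 dendritic cells (cDC2) were a source of Cfp besides the macrophage-gated and monocyte-like cells. Cfp read 0.596 and 1.07 UMIs per 10,000 in the control skins and 3.15 and 2.63 in the tumors, where it overlapped the macrophage-gated level. The groups did not overlap, and the log2 difference was 1.66 (SE 0.32, edgeR adjusted p = 0.0522). Cfp in cDC2 passed with 1 more marker per gate (edgeR adjusted p = 0.00876) and by DESeq2 (adjusted p = 0.00375). Type 1 dendritic cells (cDC1) read Cfp at 0.293 and 0.139 in the control skins and 1.19 and 1.08 in the tumors. Control cDC1 numbered 7 and 16, and no fit was made. Neutrophils read Cfp at 1.05 and 0.733 against 1.01 and 0.827.

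C3ar1 in cDC2 rested on 12 and 13 UMIs in the control skins and 14 and 6 in the tumors. It was lower in the tumors, at 0.275 and 0.164 UMIs per 10,000 against 0.0484 and 0.0798. Tumor alpha beta T cells, which give the background level, read 0.0230 and 0.0855. The C3ar1 log2 difference in cDC2 was -1.93 (SE 0.55, edgeR adjusted p = 0.120). The summed macrophage markers in cDC2 moved beside it, at 8.62 and 7.72 against 2.86 and 2.65, with 3 of 6 markers lower in both tumors and Mrc1 at 5.87, 4.77, 0.370 and 0.678. The summed monocyte markers moved the other way, at 2.41 and 4.42 against 12.6 and 7.22. Their part in the C3ar1 and Cfp values was not tested.

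In cDC2 the low-count filter left 5 of the 9 members, and 0 passed by edgeR in either direction, where 0.805% of 7085 genes were called higher and 1.02% lower. At an unadjusted p under 0.05, 3 were higher, against 9.81% of all genes, and 1 was lower, against 11.1%. DESeq2 called 1 of 9 higher, against 0.512%. C1qa in tumor cDC2 read 0.246 and 0.253 UMIs per 10,000, against 0.223 and 0.625 in alpha beta T cells of the same libraries, and so fell within the range of the class that should lack it. C3 in cDC2 overlapped between the groups at 0.183, 0.0756, 0.145 and 0.784 UMIs per 10,000.

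Neutrophils had the highest C5ar1 level per 10,000 UMIs of any class in both groups. C5ar1 read 5.10 and 5.97 UMIs per 10,000 in the control skins and 4.84 and 4.58 in the tumors, against 0.897 to 1.96 in macrophage-gated cells. Both tumor libraries lay below both controls, by a log2 difference of -0.31 (SE 0.26, edgeR adjusted p = 0.837) that did not pass. The summed neutrophil markers of these cells were also lower, at 460 and 549 against 440 and 356 with 3 of 5 lower in both tumors, and their part in the C5ar1 values was not tested. C3 in neutrophils read 1.05 and 0.623 against 1.67 and 1.60 (log2 difference 1.05, SE 0.41, adjusted p = 0.563). Cfb gave 0 UMIs in the neutrophils of both control skins, which allows levels of up to 0.392 and 0.110 per 10,000, counting error only. Neutrophils were shallow, with median depths of 3016 to 4456 UMIs. They supplied 5.21%, 7.20%, 2.50% and 3.72% of the C5ar1 UMIs, against 24.0%, 30.1%, 75.0% and 56.9% from macrophage-gated cells.

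Of the 9 members, 5 were tested in neutrophils and 0 were called by edgeR, where 0.089% of 3372 genes were called higher. At an unadjusted p under 0.05, 3 of the 5 were higher, against 4.42% of all genes, and DESeq2 called 0 of 9 higher, against 0.0323%. C1qa in tumor neutrophils read 0.930 and 1.06 UMIs per 10,000, above the 0.223 and 0.625 of alpha beta T cells and the 0.246 and 0.253 of cDC2. Counted per cell, the C1qa UMIs were 0.402 and 0.367 in these shallow neutrophils, 0.276 and 0.625 in alpha beta T cells and 0.380 and 0.388 in cDC2. The part of free RNA in these values was not tested. C1qb in neutrophils rested on 0 and 2 UMIs in the control skins and on 34 and 30 in the tumors. Its levels were 0 and 0.0733 against 0.703 and 0.886 UMIs per 10,000. The C1qb log2 difference of 3.65 (SE 0.8) did not pass. With either control skin left out, a single control library at 2 or 0 C1qb UMIs remained, so those fits are not read.

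Alpha beta T cells, which should lack most members, gave the background level. C1qa read 0.0433 and 0.0785 UMIs per 10,000 in control and 0.223 and 0.625 in tumor alpha beta T cells, and the macrophage-gated level was 150, 135, 135 and 34.0 times higher. C1qa and C1qb were called higher in these cells (log2 differences 2.70 and 2.89, SE 0.60 and 0.56, edgeR adjusted p = 0.0383 and 0.0267), as were 3.76% of 9741 genes. The summed macrophage markers of these cells read 0.160 and 0.204 against 0.290 and 0.960, with 3 of 6 higher in both tumors, and the monocyte markers 2.28 and 3.14 against 6.84 and 5.27, with 2 of 4 higher. Their part in the calls was not tested. The calls were lost without control skin 1 or control skin 2, where the control left was assumed to vary like the tumors. They were also lost with 1 more marker per gate (edgeR adjusted p = 0.0672 for C1qa and 0.0705 for C1qb). C4b in alpha beta T cells rested on 1, 1, 4 and 1 UMIs, and Cfb on 0, 0, 1 and 3.

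Summed over all gated immune cells, all 9 members were called higher in the tumors, as were 13.8% of 14933 genes. The log2 differences ran from 2.07 for C5ar1 (SE 0.53, edgeR adjusted p = 0.0413) to 4.27 for C4b (SE 0.62, adjusted p = 0.0123), with 3.09 for C1qa, 4.11 for C3 and 3.65 for Cfb. Macrophage-gated cells were 108 of the 1879 and 253 of the 2034 cells summed in the control skins. In the tumors they were 1796 of 3612 and 599 of 1314. In this sum the number of such cells and the level in each cannot be told apart. Single calls were lost without 1 library: Cfb without control skin 1, C3ar1 without tumor 1, and C5ar1 without tumor 1 or tumor 2. The library left in that group was assumed to vary like the opposite group.

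Members also varied within the macrophage-gated cells of a library. Folr2, which encodes folate receptor beta and marks many tissue-resident macrophages, was found in 12%, 24.1%, 24.9% and 32.7% of them. C4b was higher in cells with Folr2 in every library, by ratios of 9.41, 3.5, 3.68 and 7.69, although control cells with Folr2 numbered 13 and 61. The ratio of 9.41 rested on 11 C4b UMIs in all macrophage-gated cells of control skin 1. The C1q sum was higher by 1.36, 2.40, 1.35 and 1.64. Cfb was higher by 2.06, 3.73, 1.19 and 1.4, C3ar1 by 3.18, 2.08, 1.33 and 1.31, and C5ar1 by 3.73, 2.41, 1.4 and 1.6. C3 had no common direction, at ratios of 1.51, 0.384, 1.03 and 0.99, and neither did Cfp, at 0.640, 1.46, 1.26 and 1.08. These are comparisons within a library and carry no test.

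**Figure D5:**
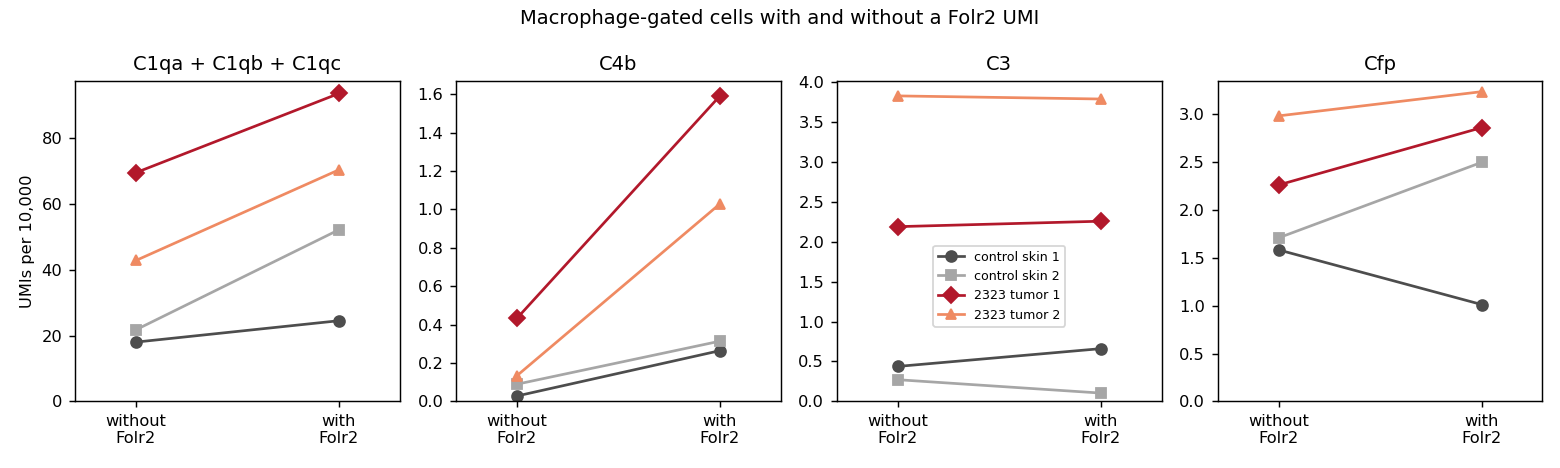
Level (y axis, UMIs per 10,000) of the C1q sum, C4b, C3 and Cfp in macrophage-gated cells without and with a Folr2 UMI (x axis), 1 line per library. C4b was 3.5 to 9.41 times higher with Folr2, whereas C3 differed by 0.384 to 1.51 times. The ratio of 9.41 rested on 11 C4b UMIs in control skin 1.

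Arg1, the arginase used as a marker of alternatively activated macrophages, was found in 12.7% and 27.7% of tumor macrophage-gated cells and in 4 and 6 control cells. In the tumors the C1q sum was 1.02 times as high with Arg1 as without it in both libraries, and Cfp 1.40 and 1.11 times. In cycling tumor cells, with Top2a and Mki67, the C1q sum was 0.984 and 1.13 times that of other cells. The C1q sum differed more with Folr2 than with Arg1 or cycling genes in both tumors.

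The 39 other complement genes of a list made for comparison held 13 of initiation, 7 of the terminal pathway, 11 inhibitors and 8 receptors. In macrophage-gated cells 14 could be tested and 1 was called higher, against 0.861% of all genes: C6, a component of the membrane attack complex. C6 gave 1 and 4 UMIs in the control skins and 992 and 173 in the tumors, a log2 difference of 4.39 (SE 0.53, edgeR adjusted p = 0.0242). The C6 call was lost without control skin 1 or control skin 2, where the control left was assumed to vary like the tumors. It was also lost with the replicate block (edgeR adjusted p = 0.0534) and without cells with 2 or more cDC2 markers (0.0535). The median log2 difference of the 14 was 0.34, against 0.04 over all genes. Of 4 inhibitors tested, 0 passed at an adjusted or an unadjusted p under 0.05 by edgeR, and DESeq2 called 0 of 9.

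In monocyte-like cells 9 of these 39 genes could be tested and 0 were called by edgeR, with 2 higher and 2 lower at an unadjusted p under 0.05, against 7.1% and 5.25% of all genes, and DESeq2 called 1 of 26 lower, against 0.427%. Of these, C1ra had a log2 difference of 2.66, Itgax of 1.61 and Lrp1 of -0.52, and they were named after their values were seen. The median log2 difference of the 9 was -0.43. Itgam, which encodes the alpha chain of complement receptor 3, was the 1 of 13 whose effect differed between the classes, by 0.95 (SE 0.20, edgeR adjusted p = 0.0465), against 0.743% of all genes. Itgam read 0.862 and 1.37 UMIs per 10,000 against 2.27 and 2.41 in macrophage-gated cells, and 1.58 and 1.65 against 1.52 and 1.71 in monocyte-like cells. In cDC2, Lrp1, which encodes a receptor reported to bind C1q, fell by 2.23 on the log2 scale (SE 0.31, edgeR adjusted p = 0.0245), from 1.40 and 2.10 to 0.367 and 0.452 UMIs per 10,000, the 1 call among 7 tested, against 1.02% of all genes called lower. The summed macrophage markers of the same cells read 8.62 and 7.72 against 2.86 and 2.65, with 3 of 6 lower and 1 higher in both tumors. Their part in the Lrp1 values was not tested.

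Levels of the C1q chains ran nearly in parallel over 43 class and library sums, with Pearson r of 0.981 for C1qa and C1qb, 0.979 for C1qa and C1qc and 0.989 for C1qb and C1qc. Among 13436 other genes, those named among the 3 most similar to C1qa were Apoe (r = 0.925) and Pf4 (0.906), and for C1qb and C1qc they were Apoe (0.934 and 0.937) and Ccl12 (0.915 and 0.921). Cfb was closest to Ms4a8a (0.928), Msr1 (0.920) and Tfec (0.916), and C3ar1 to Msr1 (0.934), Clec4a3 (0.926) and Pla2g15 (0.923). Cfp was closest to Cd300c2 (0.949), Pirb (0.937) and Spi1 (0.931), and C5ar1 to Cd300ld (0.947), Slc11a1 (0.946) and Cyp4f18 (0.945). C3 was closest to Dram1 (0.896), Gm34084 (0.891) and 4930430E12Rik (0.882), and C4b to Abcc3 (0.841), Fam213b (0.835) and Myo7a (0.835). The sums of a library share its depth and free RNA, so these values describe the patterns and carry no p.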

How the data were processed

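Single-cell RNA-seq (10x Genomics 3′) was performed on CD45+ DAPI- cells of 2 control skins and 2 skin tumors. The authors deposited raw UMI counts per gene and cell, 1 filtered matrix per library, aligned to mm10. The submitters' processing notes name Cell Ranger 7.1.0, the file headers 7.0.1. Whether intronic reads were counted was not given in the sources used here.

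The study's cell filters were applied: cells with fewer than 100 genes or 1000 UMIs, a mitochondrial share over 15% or a log10 genes-per-UMI ratio under 0.8 were removed. Cells were gated by fixed markers, and cells of 2 lineages were left out. No doublet caller was used otherwise. Scrublet (scanpy 1.11.5), which removed 40 to 229 cells per library, was an alternative. Cells that passed no gate were left out too.

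UMI counts were summed per class and library and tested with edgeR 4.0.16 (TMM factors, filterByExpr, quasi-likelihood test, Benjamini-Hochberg over all genes of the fit, threshold 0.05) where every library had at least 10 cells of the class. The library was the replicate. DESeq2 1.42.0, RLE factors, no low-count filter, 1 more marker per gate, a mitochondrial limit of 5% and leaving out each library were alternatives. Levels are UMIs per 10,000, and shares have exact binomial intervals at 95%. The edgeR fit of each class, of all gated cells and of the difference between classes was tested on simulated counts. The libraries held 34893543 to 73904272 UMIs. Levels that rest on under about 3 UMIs in the summed cells of a class and library are limited by the depth of that sum. Per 10,000, 3 UMIs stood for 0.000806 in macrophage-gated cells of tumor 1 and 0.392 in neutrophils of control skin 1.

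The genes named were the 9 members, the other complement genes called in macrophage-gated or monocyte-like cells, and for each member the 3 genes most correlated by log2(UMIs per 10,000 + 0.1) over sums of at least 20 cells. Some genes that met these rules, and 1 gate marker, are not reported here. The members, lists and gates were chosen with earlier results of these data known. Same-numbered libraries were not from a shared animal by any label. Their deviations correlated between -0.057 and 0.035 over the fitted classes, so the replicate number was not taken as a pairing.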

Additional observations from a re-analysis of the deposited data

Results flagged for a closer look

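C3 and Cfb stood apart because their tumor effect differed between macrophage-gated and monocyte-like cells by the test of the difference itself, by 2.05 (edgeR adjusted p = 0.0234) and 1.69 (adjusted p = 0.0180) on the log2 scale. Both tumor libraries read above both controls for C3 in each class, and for Cfb in macrophage-gated cells only.

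C3ar1 and C5ar1 each read in opposite directions between classes, and the differences between these classes were not tested. No fitted difference of either receptor passed in these classes. Without control skin 1 the macrophage-gated differences of both receptors turned negative. C3ar1 in cDC2 had a ratio of tumor to control means of 0.292, with both tumors below both controls, while both tumors were above in macrophage-gated cells. The cDC2 levels rested on 12, 13, 14 and 6 UMIs. Those of the tumors, 0.0484 and 0.0798 UMIs per 10,000, stood beside 0.0230 and 0.0855 in tumor alpha beta T cells. C5ar1 in neutrophils had a ratio of 0.851 with both tumors below, and the summed neutrophil markers read 460 and 549 UMIs per 10,000 in the control skins against 440 and 356 in the tumors.

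Members were also found in cells outside every class. Among cells with markers of 2 lineages (425 and 464 in the control skins, 161 and 218 in the tumors, with a median depth of 27527 UMIs), mean tumor levels were 11.8 UMIs per 10,000 for C1qa, 10.7 for C1qb, 6.97 for C1qc, 1.54 for C3, 0.254 for C4b, 0.447 for Cfb, 1.63 for Cfp, 1.04 for C3ar1 and 0.99 for C5ar1. The control means were 2.71, 2.84, 1.66, 0.115, 0.0627, 0.0573, 0.527, 0.523 and 0.413. Both tumors lay above both controls for every member. The share of all genes that did so in these cells was not computed, and in macrophage-gated cells it was 43.7%.

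Among cells that passed no gate, with a median depth of 3498 UMIs, mean tumor levels were 2.27 for C1qa, 2.73 for C1qb, 1.29 for C1qc, 1.08 for C3, 0.0733 for C4b, 0.185 for Cfb, 0.602 for Cfp, 0.639 for C3ar1 and 0.742 for C5ar1. The control means were 0.427, 0.529, 0.250, 0.0926, 0.0136, 0.00340, 0.142, 0.180 and 0.276. Both tumors again lay above both controls for every member, and the share of all genes that did so was not computed here either. The part of doublets and of free RNA in these levels was not tested.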

How the results depend on the processing

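Over single-gene values, 416 kept their direction and their side of the threshold under an alternative, 52 came to pass, 18 no longer passed and 10 changed sign. The main fits tested 11959 genes in macrophage-gated cells, 9700 in monocyte-like cells, 7085 in cDC2, 3372 in neutrophils and 9741 in T cells. DESeq2 tested 20828, 18052, 16391, 12380 and 17802 in the same order. Numbers tested under other alternatives are not given here, so those counts cannot be read as shares. In macrophage-gated cells 1 member and 197 genes were called. Without the low-count filter these were 6 and 1413, by DESeq2 6 and 723, and with 1 more marker per gate 113 genes. Without cells holding 2 or more cDC2 markers they were 0 and 26, and with a gate without Cd68 and Mrc1 101 genes, both chosen after seeing the data. Leaving out 1 library gave 0 to 3 members and 0 to 540 genes. In monocyte-like cells 0 members and 58 genes were called. Without the low-count filter these were 5 and 576, by DESeq2 3 and 183, after Scrublet 1 member, with RLE factors 38 genes, with 1 more marker per gate 2 genes, and at a mitochondrial limit of 5% 35 genes. Leaving out 1 library gave 0 to 5 members and 0 to 677 genes. In cDC2 0 members and 129 genes were called, against 4 and 848 without the filter, 1 and 213 by DESeq2, and 1 and 614 with 1 more marker per gate. Leaving out 1 library gave 0 to 3 members and 211 to 897 genes. In neutrophils 0 members and 3 genes were called, against 1 and 34 without the filter, 5 genes by DESeq2 and 1 after Scrublet. Leaving out 1 library gave 0 to 1 members and 0 to 123 genes. In alpha beta T cells 2 members and 834 genes were called, against 5 and 1940 without the filter and 0 members with 1 more marker per gate. Leaving out 1 library gave 0 to 4 members and 0 to 2882 genes. Over all gated immune cells it gave 7 to 9 members and 1099 to 5233 genes, against 9 and 4656. The test of the difference between classes called 202 genes and 638 without the filter. C3 and Cfb passed it under the 3 alternatives run, RLE factors, no filter and DESeq2.

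With the replicate number as a block, 0 members and 44 genes were called in macrophage-gated cells, 1 member (C1qa) in monocyte-like cells and 0 genes in neutrophils. The share of all genes called is not given beside these counts. The numbers did not pair the samples, since deviations of same-numbered libraries correlated by -0.057 to 0.035. With 1 library left in an arm, it was assumed to vary like the other group.

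In macrophage-gated cells C3ar1 and C5ar1 ran from -0.15 and -0.05 without control skin 1 to 0.86 and 0.91 without control skin 2. In monocyte-like cells C5ar1 ran from -0.26 to 0.58 without the same libraries, and Cfb from -0.34 without tumor 2 to 1.26 without tumor 1. Cfp in neutrophils ran from -0.21 without control skin 2 to 0.24 without control skin 1, and was -0.07 without tumor 1 and -0.10 with 1 more marker per gate. The difference between classes became -0.0 (RLE) and -0.01 (DESeq2) for C1qb and 0.42 (DESeq2) for C4b. The shares of macrophage-gated cells with C1qa at full depth were 53.7%, 70.0%, 93.6% and 91.5%, and those with C3 were 27.8%, 19.4%, 65.9% and 81.5%. The causes were not tested, apart from the fewer samples or cells that an alternative holds by construction. With 2 libraries a group and 28 to 113 control monocyte-like cells, members at a few UMIs could not be told from background.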

Other observations

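Of the complement initiation genes, 3 could be tested in macrophage-gated cells and 0 passed by edgeR. At an unadjusted p under 0.05 there were 2 higher and 1 lower, against 1033 and 1147 of 11959 genes. DESeq2 called 1 of 9 higher and 1 lower, against 325 and 398 of 20828 genes. C1ra, a protease that acts with C1q, read 0.00996 and 0.0344 UMIs per 10,000 in the control skins and 0.15 and 0.125 in the tumors (log2 difference 2.22, SE 0.48, edgeR adjusted p = 0.0810). Fcna, which encodes ficolin A, a lectin of the lectin pathway, read 0.0199 and 0.0344 against 0.127 and 0.102 (1.76, SE 0.39, adjusted p = 0.0856). Colec12, a scavenger receptor with a collagen-like stalk, was lower, at 0.159 and 0.0590 against 0.0296 and 0.0198 (-2.30, SE 0.55, adjusted p = 0.0981). The libraries of the groups did not overlap for any of the 3, which were named after their values were seen. Both tumors lay above both controls for 43.7% of all genes in this class, and the share with both below was not computed. C1ra in control skin 1, at 0.00996, lay under the 0.0149 that 3 UMIs stood for there.

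Collagen-positive cells, the class with non-immune markers, numbered 2 and 2 in the control skins and 45 and 85 in the tumors. In the tumors they held C3 at 0.0145 and 0.417 and C4b at 0.0218 and 0.125 UMIs per 10,000, with no test at these cell numbers. Mast cells held Cfp at 0.321 and 0.630 in the control skins and 0.642 and 1.04 in the tumors, on 17 to 38 cells a library.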
